A study of Homo sapiens with 6 samples.

Results

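The genes described here are 46 members of the Wnt signalling system: 13 ligands, 10 Frizzled receptors, 5 co-receptors and alternative receptors, 2 genes of ligand secretion, 7 secreted antagonists, 3 genes of the R-spondin axis and 6 intracellular transducers. They were chosen by name, with earlier results of these data known. Each was found by its Entrez gene ID among the 23459 genes of the count table. Their mRNA was measured by RNA sequencing in T47D-YA, a subline of T47D (a luminal breast cancer line) with progesterone receptor A. Each of 3 groups had 2 libraries: the control with the empty vector, a line overexpressing the 18 kDa isoform of FGF2 (fibroblast growth factor 2), and a line overexpressing its 22.5 kDa isoform. No treatment, dose or time is given for any group, and the sources used here do not say whether a line is 1 clone or a pool. The labels name no second line for any group. A difference between lines therefore cannot be told apart from an effect of FGF2 in any comparison, also those with the control. Below, "with" an isoform names the line that carries it. Since nothing states that the 2 libraries of a group are separate cultures, the p-values below reflect the spread between libraries only, which may be technical. The samples are bulk RNA, in which fewer cells expressing a gene and less RNA per cell cannot be told apart.

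Wnt proteins are secreted growth factors. In the endoplasmic reticulum the acyltransferase PORCN attaches a fatty acid to the ligand, and the membrane protein WLS then carries the lipid-bearing ligand to the cell surface. At the receiving cell the ligand binds a Frizzled receptor together with LRP5 or LRP6, Dishevelled (DVL) proteins are recruited, and the complex of APC, AXIN and GSK3B no longer marks beta-catenin (CTNNB1) for degradation. ROR2 and RYK are alternative receptors for ligands that do not act through beta-catenin. In the mammary gland WNT4 is known as a ligand whose gene responds to progesterone. The title of the series names Wnt pathway activation in antiprogestin-resistant luminal breast cancer, and each comparison asks which members differed with an isoform.

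The regions around the transcription starts of 5 members that the results turn on are shown to place the genes. Each runs from 250 bases before to 50 bases after the start, is written 5′ to 3′ on the gene's strand, and comes from RefSeq (GRCh38.p14). WLS and PORCN are the secretion genes, WNT4 was higher with both isoforms, and WNT6 and FZD4 differed between the isoforms. Capitals mark the GC box (GGGCGG, searched on both strands with overlapping matches kept) and, in PORCN, the core hexamer of an estrogen response element (AGGTCA, both strands).
WLS, chr1:68232497-68232796, minus strand: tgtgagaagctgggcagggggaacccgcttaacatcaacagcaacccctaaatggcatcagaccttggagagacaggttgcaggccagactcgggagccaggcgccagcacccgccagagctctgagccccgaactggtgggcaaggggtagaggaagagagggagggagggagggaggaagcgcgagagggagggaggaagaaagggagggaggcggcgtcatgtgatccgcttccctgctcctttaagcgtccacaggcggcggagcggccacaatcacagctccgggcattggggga
PORCN, chrX:48509534-48509833, plus strand: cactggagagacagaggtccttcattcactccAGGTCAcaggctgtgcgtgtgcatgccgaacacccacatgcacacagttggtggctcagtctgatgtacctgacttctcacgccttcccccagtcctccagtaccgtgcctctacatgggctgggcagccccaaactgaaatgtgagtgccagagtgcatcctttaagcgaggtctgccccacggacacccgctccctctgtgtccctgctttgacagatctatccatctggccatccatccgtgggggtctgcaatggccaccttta
WNT4, chr1:22143048-22143347, minus strand: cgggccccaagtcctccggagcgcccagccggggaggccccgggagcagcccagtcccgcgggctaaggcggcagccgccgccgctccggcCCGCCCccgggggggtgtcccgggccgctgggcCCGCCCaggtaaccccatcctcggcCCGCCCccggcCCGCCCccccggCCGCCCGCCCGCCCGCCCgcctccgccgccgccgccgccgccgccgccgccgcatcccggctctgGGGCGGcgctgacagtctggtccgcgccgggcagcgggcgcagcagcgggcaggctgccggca
WNT6, chr2:218859555-218859854, plus strand: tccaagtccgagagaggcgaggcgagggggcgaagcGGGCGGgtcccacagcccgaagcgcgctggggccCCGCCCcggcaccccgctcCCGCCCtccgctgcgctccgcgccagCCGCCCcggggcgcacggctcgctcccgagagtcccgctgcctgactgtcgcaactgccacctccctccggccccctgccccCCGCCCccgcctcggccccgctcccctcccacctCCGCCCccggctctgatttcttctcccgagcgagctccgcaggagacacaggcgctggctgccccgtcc
FZD4, chr11:86955346-86955645, minus strand: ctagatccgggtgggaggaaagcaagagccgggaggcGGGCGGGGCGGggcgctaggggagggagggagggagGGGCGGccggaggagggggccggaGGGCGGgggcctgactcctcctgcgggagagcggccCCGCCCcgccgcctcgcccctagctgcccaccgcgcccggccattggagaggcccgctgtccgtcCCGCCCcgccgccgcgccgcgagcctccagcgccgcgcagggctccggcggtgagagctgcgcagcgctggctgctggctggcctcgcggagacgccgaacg

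The promoter table held 35 of the 46 members, and 28 of those (80%) had a GC box, against 43.4% of 27305 RefSeq promoters of 300 bases. WLS and PORCN had no GC box in this window, while WNT4 had 9 matches, WNT6 had 6 and FZD4 had 6. The TCF/LEF core CTTTGAT, on either strand, was in 0 of the 35 and in 2.72% of all promoters, and the progesterone receptor hexamer AGAACA in 0 of the 35 and in 15.2%. AGGTCA was in 2 of the 35 (5.71%) and in 14.2% of all promoters. The TATA box letters TATAAA were in 3 of the 35 (8.57%) and in 12.3%. GC content was 85.7% for WNT4, 78% for WNT6, 79.7% for FZD4, 63.3% for WLS and 57.3% for PORCN. The median over all promoters was 58%, and the shares above were not matched for GC content. These are matches of letters in a short window and do not show binding.

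The libraries held 5317687 to 6817324 counts, so that the limit that a count of 0 allows, 3 counts, stands for 0.457 to 0.600 CPM (the count over the TMM-scaled library size). FGF2 had 12 and 13 counts in the control, 6259 and 4365 in the 18 kDa line and 8731 and 7758 in the 22.5 kDa line. Its mean was 862 CPM with 18 kDa and 1442 CPM with 22.5 kDa FGF2, without overlap of the libraries. This difference between the isoform lines was 0.74 on the log2 scale and did not pass (adjusted p = 0.119 in edgeR's test). The part of the FGF2 mRNA level in the isoform differences below was not tested. All 10 luminal markers were measured. In each line 3 of them, PGR, ESR1 and XBP1, fell and 0 rose by the test. EPCAM lay above the control in both lines without overlap of the libraries, by 0.98 and 0.78 on the log2 scale. It did not pass (adjusted p = 0.0537 and 0.114 in edgeR's test). PGR, the gene of the progesterone receptor, had a mean of 215 CPM in the control, 22.8 with 18 kDa and 23.6 with 22.5 kDa FGF2. It fell by 3.24 and 3.18 on the log2 scale (adjusted p = 9.69e-06 and 8.69e-06 in edgeR's test). ESR1 fell by 3.57 and 2.88 (4.62e-05 and 0.000244), and XBP1 by 1.73 and 1.29 (1.71e-05 and 0.000421). Of markers of other cell types, 2 of 6 basal, 5 of 8 fibroblast, 2 of 4 endothelial, 1 of 5 leukocyte and 2 of 4 adipocyte genes had enough counts to be tested. Their summed levels in the control and in the FGF2 lines were 21.2 and 9.996 to 19.0 CPM (basal), 68.4 to 81.4 and 53.6 to 58.5 CPM (fibroblast), 3.75 to 5.89 and 2.59 to 5.44 CPM (endothelial), 5.99 to 6.07 and 3.81 to 5.40 CPM (leukocyte), and 4.82 to 5.24 and 2.90 to 7.05 CPM (adipocyte). CD3E and FABP4 had no count and KRT5 had 2 over the 6 libraries. COL1A1 had 1304, PDGFRA 588, ACTA2 395, ADIPOQ 141 and CD68 138. THY1 fell by 3.23 and 4.38 (adjusted p = 0.000895 and 0.00017), and LPL, with 12 and 10 counts in the control and 0 in each FGF2 library, was lower in both. ADIPOQ, of the same adipocyte list as LPL, lay higher in both lines, by 1.35 and 0.34. It did not pass (adjusted p = 0.0621 and 0.751 in edgeR's test). With 18 kDa FGF2, VWF rose by 2.31 (adjusted p = 0.0118) and KDR fell by 1.76 (adjusted p = 0.047). The part of these shifts in the results below was not tested. On the second principal component 18 kDa replicate 1 (-48.0) and 22.5 kDa replicate 1 (42.7) stood apart from the remaining 4 libraries (-8.25 to 8.29), and values without both are given for the members that these libraries decide.

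Of the 46 members, 27 had enough counts to be tested, 13 had counts but too few, and 6 had no count in any library. Those 6 were the ligand WNT7A, the receptor FZD10, the antagonists DKK3, SFRP1 and SFRP5, and the R-spondin RSPO3. A gene passed where its adjusted p in edgeR's quasi-likelihood test, over all 13124 genes tested, was under 0.05. In the 18 kDa line 4 of the 27 passed (14.8%), where 8.88% of all genes did. WNT4, ROR2 and PORCN rose, where 4.09% of all genes rose, and WLS fell, where 4.79% fell. In the 22.5 kDa line 7 passed (25.9%), where 10.9% of all genes did. WNT3A, WNT4, WNT6, FZD4 and ROR2 rose, where 5.02% of all genes rose, and FZD2 and WLS fell, where 5.88% fell. Between the isoforms 2 passed (7.41%), where 1.58% of all genes did: WNT6 and FZD4 were higher in the 22.5 kDa line (1.13% of all genes) and 0 were lower (0.45%). Since the members were chosen with earlier results of these data known, these shares describe the list and do not test it.

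The median log2 fold change of the 27 was -0.19 in the 18 kDa line (all genes -0.05), 0.08 in the 22.5 kDa line (all genes 0.01) and 0.00322 between the isoforms (all genes 0.02). CPM values of 14 of the 27 (51.9%) did not overlap between the 18 kDa line and the control, against 52% of all genes: 7 were higher (all genes 25%) and 7 lower (26.9%). For the 22.5 kDa line it was 16 (59.3%) against 52.9%, with 8 higher (26%) and 8 lower (27%). Between the isoforms it was 14 (51.9%) against 38.1%, with 7 higher (19.1%) and 7 lower (19%). Both lines were set against the same 2 control libraries, so their values are given side by side and not correlated.

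**Figure D1:**
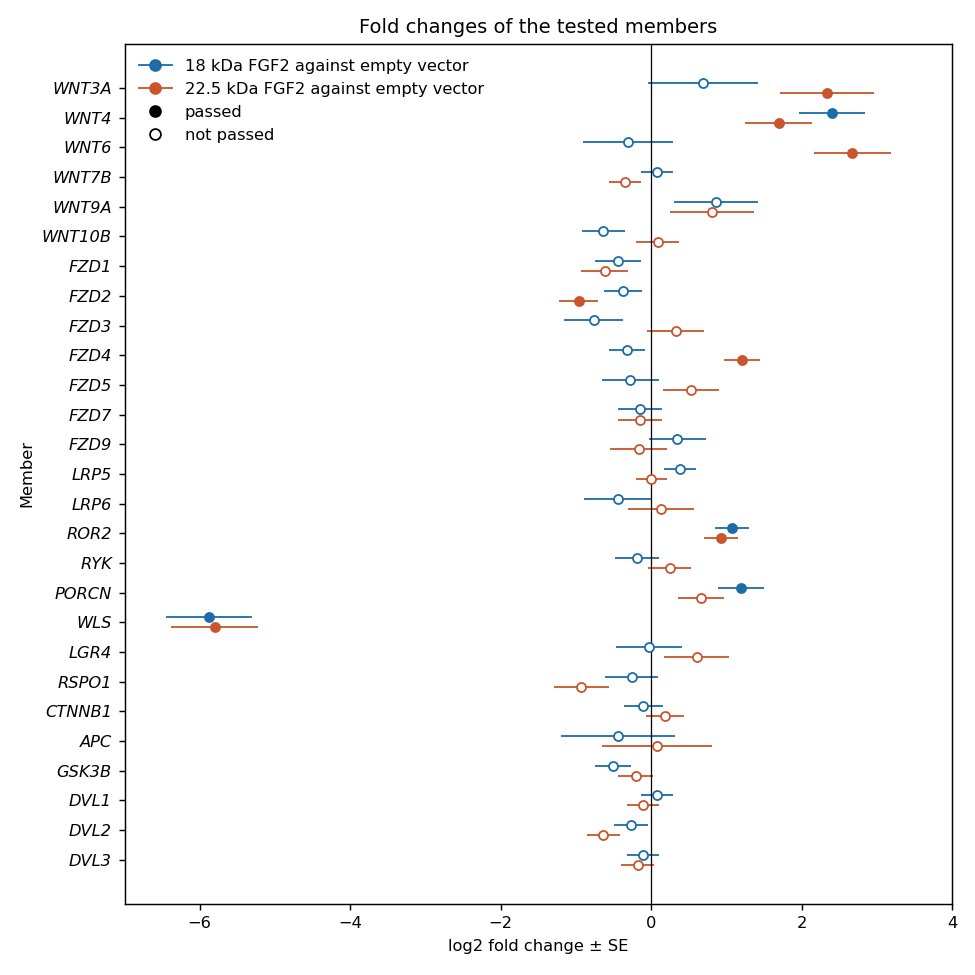
Log2 fold change (x axis, ± SE) of the 27 tested members (y axis) against the empty vector control, blue for 18 kDa and orange for 22.5 kDa FGF2, filled where the test passed. WLS lies at -5.87 and -5.80, and all other members lie between -0.96 and 2.67.

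Of the secretion genes, WLS (Entrez 79971, chromosome 1) was close to absent in both FGF2 lines. It had 121 and 102 counts in the control, and 3 and 1 in each FGF2 line. In CPM these were 21.6 and 19.1 against 0.460 and 0.175, and against 0.457 and 0.200. The 4 FGF2 libraries were thus all far under both control libraries, and all at or under the limit that a count of 0 allows. The fitted log2 fold change was -5.87 (SE 0.57, adjusted p = 1.25e-07) with 18 kDa FGF2 and -5.80 (SE 0.58, adjusted p = 1.44e-07) with 22.5 kDa FGF2. As a ratio of summed counts, WLS was 62.3-fold lower with 18 kDa FGF2 (exact binomial 95% interval 23.998 to 231) and 58.9-fold lower with 22.5 kDa FGF2 (22.7 to 218), counting error only. It passed in all 15 alternatives of each comparison, with adjusted p up to 0.000716 and 0.00434. Its fitted value was -6.67 without 18 kDa replicate 1 and -6.53 without 22.5 kDa replicate 1, and -6.68 and -6.51 without both. With 4 counts in each isoform group, the difference between the isoforms (0.07, 95% interval -1.85 to 2.00) was hardly bounded.

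Genes that overlap WLS and are counted in the table had few reads or none: the antisense gene GNG12-AS1 had at most 2 counts in a library and the microRNA gene MIR1262 had 0. The 24 tested genes nearest to WLS had a median log2 fold change of -0.43 with 18 kDa FGF2 (6 of 24 above 0) and -0.05 with 22.5 kDa FGF2 (10 of 24); WLS itself was at -5.87 and -5.80.

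PORCN (Entrez 64840, chromosome X), the acyltransferase that acts before WLS, rose in the 18 kDa line. It was at 15.0 and 13.5 CPM in the control, at 32.9 and 32.3 CPM in the 18 kDa line and at 18.6 and 26.6 CPM in the 22.5 kDa line. Every FGF2 library was above both control libraries. The rise of 1.19 (SE 0.30) with 18 kDa FGF2 passed (adjusted p = 0.0115) but not without control replicate 1 (0.0875) or 2 (0.157), with 6.9e-05 to 0.157 over its alternatives. With 22.5 kDa FGF2 the log2 fold change was 0.66 (SE 0.31, adjusted p = 0.188), with 0.40 to 0.90 over its alternatives. It was 0.90 without both FGF2 replicate 1 libraries, a fit that leaves 1 library in each FGF2 group. The difference between the isoforms was -0.53 (95% interval -1.14 to 0.08, adjusted p = 0.488).

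The neighbours of PORCN were mostly higher as well. Of the 24 tested genes nearest to it on chromosome X, 23 were above 0 with 18 kDa FGF2, with a median log2 fold change of 0.94. With 22.5 kDa FGF2, 23 of 24 were above 0 with a median of 0.64, close to the 0.66 of PORCN itself. The part of the neighbourhood in the result was not tested.

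**Figure D2:**
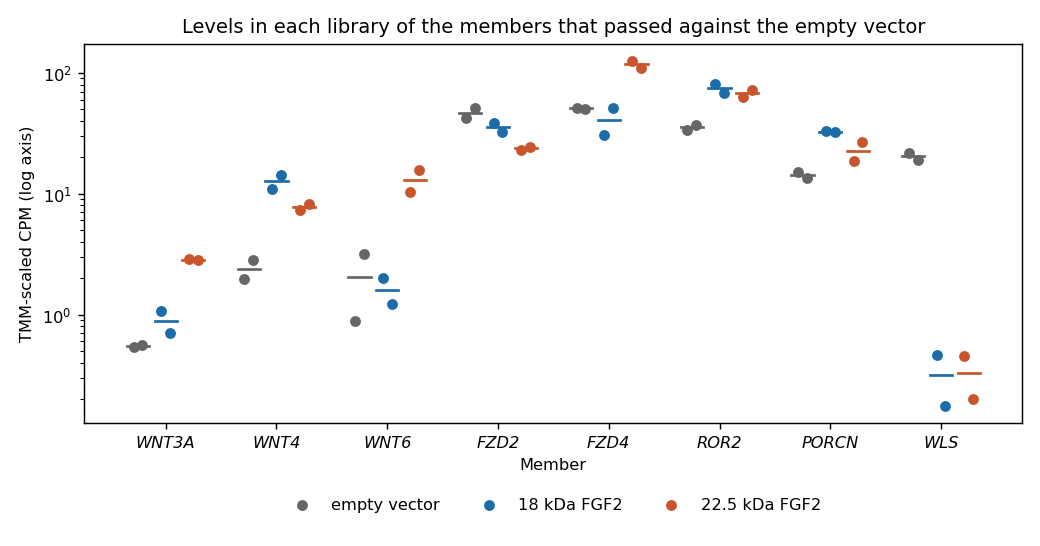
TMM-scaled CPM (y axis, log scale) in each library (points) of the 8 members that passed against the control in at least 1 comparison (x axis), with bars at the group means. The 4 FGF2 libraries of WLS lie under 0.5 CPM against 19.1 and 21.6 CPM in the control.

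Of 13 ligand genes 6 were tested. WNT4 rose with both isoforms, and WNT3A and WNT6 rose with 22.5 kDa FGF2 alone among the comparisons with the control; with DESeq2 1 and 2 ligands passed. WNT4 (Entrez 54361, chromosome 1) was at 1.96 and 2.81 CPM in the control, 11.0 and 14.4 CPM in the 18 kDa line, and 7.32 and 8.20 CPM in the 22.5 kDa line. The 3 groups did not overlap, and the control was the lowest. The rise was 5.29-fold with 18 kDa FGF2 (log2 fold change 2.40, SE 0.44, adjusted p = 0.000515) and passed in all 15 alternatives. It was 3.23-fold with 22.5 kDa FGF2 (1.69, SE 0.44, adjusted p = 0.0125), which was no longer called without control replicate 1 (0.207) or 2 (0.0532) or 22.5 kDa replicate 1 (0.0612) or 2 (0.0946), with 0.000188 to 0.207 over its alternatives. The isoform difference did not pass (-0.71, 95% interval -1.51 to 0.09, adjusted p = 0.478). The median of the 24 neighbours of WNT4 was -0.00355 with 18 kDa and 0.09 with 22.5 kDa FGF2.

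WNT6 (Entrez 7475, chromosome 2), a ligand of epithelial development, had 68 and 79 counts in the 22.5 kDa line, against 5 and 17 in the control and 13 and 7 in the 18 kDa line. In CPM these were 10.4 and 15.8, against 0.892 and 3.18, and against 1.99 and 1.23. Both 22.5 kDa libraries lay above the other 4, while the control and 18 kDa groups overlapped. WNT10A, whose gene model overlaps that of WNT6, had at most 11 counts in a library. The rise with 22.5 kDa FGF2 was 6.38-fold over the control (log2 fold change 2.67, SE 0.51, adjusted p = 0.000905) and was no longer called without 22.5 kDa replicate 2 (0.0626), with 2.52e-10 to 0.0626 over its alternatives. The control libraries of WNT6 lay apart, and the log2 fold change was 2.03 (adjusted p = 0.0315) without control replicate 1 and 3.84 (adjusted p = 4.33e-05) without control replicate 2. Of its 24 neighbours 22 were higher than in the control, with a median of 0.43, and their part in the result was not tested. With 18 kDa FGF2 the log2 fold change was -0.31 (SE 0.60, adjusted p = 0.827).

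WNT3A (Entrez 89780, chromosome 1), a ligand that acts through beta-catenin, had 3 and 3 counts in the control, 7 and 4 with 18 kDa FGF2 and 19 and 14 with 22.5 kDa FGF2. Its level was 0.549 ± 0.0187 CPM in the control, 0.887 ± 0.262 CPM with 18 kDa and 2.85 ± 0.0672 CPM in the 22.5 kDa line (SD over 2 libraries). The groups did not overlap. The rise with 22.5 kDa FGF2 (2.33, SE 0.63, adjusted p = 0.0147) rests on few counts: the ratio of summed counts was 5.21 (exact binomial 95% interval 2.15 to 15.2). It was no longer called with DESeq2 (0.201), without control replicate 1 (0.141) or 2 (0.103) and without 22.5 kDa replicate 1 (0.086) or 2 (0.0752), with 0.00203 to 0.201 over its alternatives. With 18 kDa FGF2 it was at 0.69 (SE 0.74, adjusted p = 0.666).

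The most abundant ligands passed in no comparison. WNT7B (Entrez 7477) was at 77.1 and 80.9 CPM in the control, 84.9 and 81.7 CPM in the 18 kDa line, and 62.3 and 61.4 CPM in the 22.5 kDa line. Its 22.5 kDa libraries lay under all others, by -0.35 (SE 0.21, adjusted p = 0.34) against the control and -0.43 (SE 0.21, adjusted p = 0.429) against 18 kDa FGF2. WNT10B (Entrez 7480), a ligand that acts through beta-catenin, was at 25.5 and 37.5 CPM in the control, 21.0 and 19.5 CPM in the 18 kDa line, and 35.8 and 30.8 CPM in the 22.5 kDa line. Its 18 kDa libraries were the lowest, at -0.64 (SE 0.29, adjusted p = 0.2) against the control. WNT9A was at 1.37 ± 0.0826 CPM in the control, 2.47 ± 1.27 CPM with 18 kDa and 2.40 ± 0.276 CPM in the 22.5 kDa line (SD over 2 libraries), and did not pass (adjusted p = 0.425 and 0.43).

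Of the ligands under the count filter, WNT3 had 30 counts over the 6 libraries, WNT10A had 26, WNT5B had 23, WNT11 had 16, WNT5A had 8 and WNT16 had 4. WNT5A, the ligand best known for ROR2, was therefore not detectable as different at this depth.

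The makeup of the ligand and Frizzled pools was compared per length, as CPM per kilobase of the longest protein-coding transcript in GENCODE release 29. This length was chosen after the median transcript length was seen to fall far below the coding transcript for several members (551 against 5159 bases for LRP5). WNT7B was the highest ligand and WNT10B the second in every library with the longest transcript. With the median length WNT10B was above WNT7B in 22.5 kDa replicate 1, and WNT4 above WNT10B in 18 kDa replicate 2. With the longest transcript, WNT7B made up 50.3% to 58.7% of the ligand pool in the control, 58.1% to 58.8% with 18 kDa FGF2 and 36.0% to 37.2% with 22.5 kDa FGF2. WNT6 made up 1.56% to 4.55%, 2.03% to 3.14% and 14.2% to 21.3%. WNT4 made up 1.52% to 1.78%, 7.69% to 10.5% and 4.45% to 4.90%, and with the median length 4.52% to 5.26%, 20.4% to 26.5% and 12.5% to 13.9%.

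**Figure D3:**
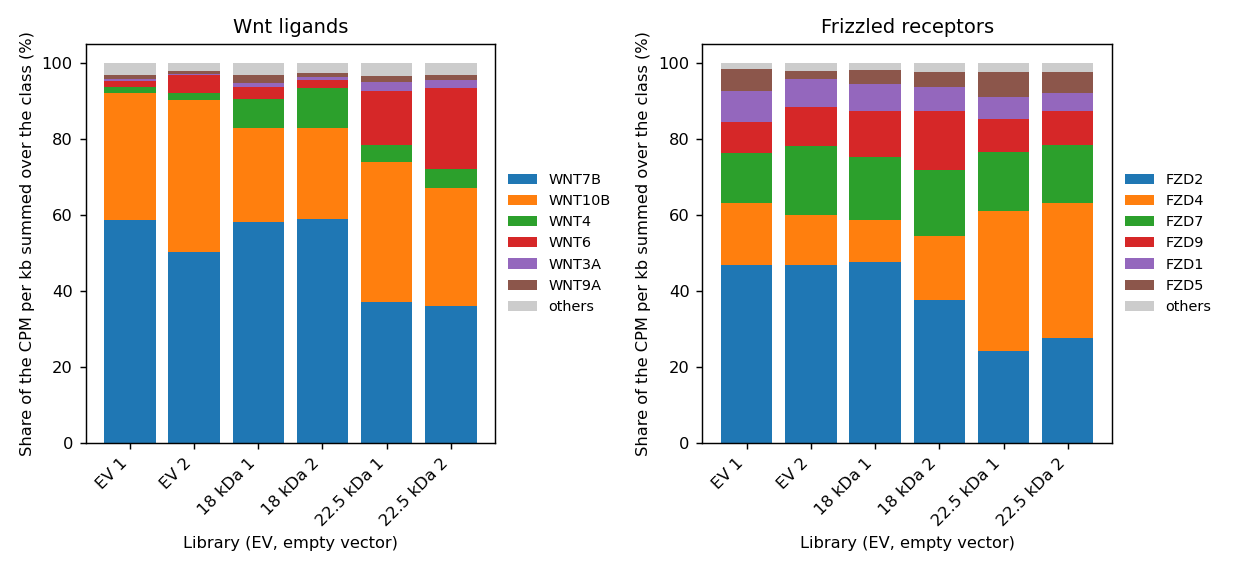
Share of the summed CPM per kilobase (y axis, %) of each ligand (left) and each Frizzled receptor (right) in the 6 libraries (x axis, EV for empty vector), per length of the longest coding transcript. FZD4 takes 35.6% to 37.0% of the Frizzled pool in the 22.5 kDa libraries against 10.9% to 16.8% in the other 4.

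Of 10 Frizzled receptor genes 7 were tested, and 2 passed in the 22.5 kDa line (28.6%, where 10.9% of all genes did). FZD4 (Entrez 8322, chromosome 11), a Frizzled that also binds the ligand Norrin, was at 51.4 and 50.2 CPM in the control, 30.8 and 50.9 CPM in the 18 kDa line, and 125 and 110 CPM in the 22.5 kDa line. Both 22.5 kDa libraries were far above the other 4. The rise was 2.31-fold (log2 fold change 1.21, SE 0.24, adjusted p = 0.00103) and passed in all 15 alternatives (2.08e-07 to 0.0357). PRSS23, which overlaps FZD4, had at most 51 counts in a library against 818 for FZD4. The 24 neighbours had a median of -0.03.

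FZD2 (Entrez 2535, chromosome 17), a close relative of FZD1 and FZD7, fell in the 22.5 kDa line. It was at 41.9 and 50.9 CPM in the control, 38.6 and 32.6 CPM in the 18 kDa line, and 23.2 and 24.4 CPM in the 22.5 kDa line. The fall of 22.5 kDa against the control was 1.95-fold (-0.96, SE 0.26, adjusted p = 0.0144) and was no longer called without control replicate 1 (0.0528) or 2 (0.243) or 22.5 kDa replicate 1 (0.0932) or 2 (0.0909), with 0.000386 to 0.243 over its alternatives. Its 24 neighbours had a median of -0.28, with 8 of 24 above 0. Per length FZD2 was the highest Frizzled in the control and 18 kDa libraries, with 37.7% to 47.7% of the pool. In the 22.5 kDa libraries FZD4 was the highest, with FZD2 at 24.02% to 27.6%, and this order was the same with the median length.

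In edgeR's test 0 of the 7 Frizzled genes passed with 18 kDa FGF2, where 8.88% of all genes did (0 with an unadjusted p under 0.05, 0 with DESeq2). Their log2 fold changes ran from -0.77 (FZD3) to 0.35 (FZD9). FZD7 (Entrez 8324) was at 21.4 and 36.1 CPM in the control, 24.7 and 27.2 CPM with 18 kDa and 27.3 and 24.6 CPM in the 22.5 kDa line, so its groups overlapped (log2 fold changes -0.15, SE 0.29 and -0.15, SE 0.30, adjusted p = 0.832 and 0.838). FZD1 lay lower with both isoforms (-0.44, SE 0.31 and -0.62, SE 0.31), but did not pass (adjusted p = 0.463 and 0.229). FZD5 was at 0.53 with 22.5 kDa FGF2 (SE 0.37, adjusted p = 0.429). FZD8 had 38 counts over all libraries and FZD6 had 1.

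Among co-receptors and alternative receptors, ROR2 (Entrez 4920, chromosome 9), a receptor tyrosine kinase of the branch that does not act through beta-catenin, rose with both isoforms. It was at 33.9 and 37.1 CPM in the control, 80.7 and 68.6 CPM in the 18 kDa line, and 63.3 and 71.6 CPM in the 22.5 kDa line. Every FGF2 library was above both control libraries, and the FGF2 groups overlapped each other. The rise was 2.10-fold with 18 kDa FGF2 (1.07, SE 0.23, adjusted p = 0.00238) and was no longer called without control replicate 1 (0.0698), with 1.19e-05 to 0.0698 over its alternatives. With 22.5 kDa FGF2 it was 1.90-fold (0.92, SE 0.23, adjusted p = 0.00759) and was no longer called without control replicate 1 (0.145) or 2 (0.0716) or 22.5 kDa replicate 2 (0.0752), with 0.000199 to 0.145 over its alternatives. The 24 neighbours had medians of -0.11 and -0.05. ROR1, its paralog, had 1 count in all.

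LRP5 (Entrez 4041) was at 211 and 250 CPM in the control, 299.7 and 300.1 CPM in the 18 kDa line and 227 and 234 CPM in the 22.5 kDa line. Its 18 kDa libraries were the highest, yet the difference from the control did not pass (0.38, SE 0.21, adjusted p = 0.325). LRP6 was low, at 5.09 CPM over all libraries, and per length of the longest transcript LRP5 was at 49.2 and LRP6 at 0.508 CPM per kb. RYK (Entrez 6259) was at 29.4 and 27.9 CPM in the control, 20.2 and 30.2 CPM with 18 kDa and 39.0 and 28.8 CPM in the 22.5 kDa line, so its groups overlapped (-0.19, SE 0.29 and 0.24, SE 0.28, adjusted p = 0.775 and 0.683).

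None of the 7 secreted antagonists had enough counts for a test. SFRP2 had 21 counts over the 6 libraries (7 and 0, 0 and 4, 3 and 7), and DKK1, SFRP4 and FRZB had 1 each. The count of DKK1, an inhibitor that binds LRP5 and LRP6, was in control replicate 1, and its 0 in the other libraries allows up to 0.600 CPM. LGR4 (Entrez 55366), a receptor for R-spondins, was at 17.8 and 11.8 CPM in the control, 8.12 and 21.0 CPM in the 18 kDa line, and 28.0 and 16.8 CPM in the 22.5 kDa line. The replicates of each group lay far apart, and LGR4 passed in none of the 3 comparisons in edgeR's test. Without 18 kDa replicate 2 the isoform difference of LGR4 was 1.41 (adjusted p = 0.0457), against 0.63 (adjusted p = 0.611) with all libraries and 0.0457 to 1 over its alternatives. That fit keeps 18 kDa replicate 1 alone, and without both FGF2 replicate 1 libraries the difference turned to -0.32 (adjusted p = 0.806). RSPO1 (Entrez 284654), an R-spondin ligand, was at 17.8 and 21.0 CPM in the control, 21.9 and 10.3 CPM in the 18 kDa line, and 10.4 and 10.005 CPM in the 22.5 kDa line. Both 22.5 kDa libraries were under the control (-0.93, SE 0.37, adjusted p = 0.115), and without 18 kDa replicate 2 the difference passed (-0.94, adjusted p = 0.0398), with 0.00843 to 0.45 over its alternatives. With 18 kDa FGF2 the log2 fold change of RSPO1 was -0.26 (adjusted p = 0.745). Without both FGF2 replicate 1 libraries, which leaves 1 library in each FGF2 group, it was -0.91.

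CTNNB1 (Entrez 1499), the gene of beta-catenin, was at 163 and 129 CPM in the control, 105 and 167 CPM in the 18 kDa line, and 200.1 and 132 CPM in the 22.5 kDa line. The groups overlapped, and the 95% intervals of its log2 fold changes were -0.65 to 0.43 and -0.36 to 0.72. Without both FGF2 replicate 1 libraries its log2 fold changes were 0.19 and -0.15, against -0.11 and 0.18 with all libraries, and its isoform difference was -0.34 against 0.29. These are mRNA levels, and beta-catenin is known to be controlled mainly through protein stability. DVL3 (Entrez 1857) was the highest transducer at 333 and 313 CPM in the control, 336 and 263 CPM with 18 kDa and 273 and 298 CPM in the 22.5 kDa line (-0.11, SE 0.22 and -0.18, SE 0.22, adjusted p = 0.83 and 0.693). DVL2 (Entrez 1856) was at 109 and 107 CPM, 101 and 77.9 CPM, and 58.8 and 80.4 CPM. Every FGF2 library of DVL2 was under the control, but the difference did not pass with 22.5 kDa FGF2 (-0.64, SE 0.22, adjusted p = 0.0704). It passed without 18 kDa replicate 1 (0.0475) or 2 (0.0328), with 0.00671 to 0.356 over its alternatives. GSK3B, the kinase that marks beta-catenin, was at -0.51 with 18 kDa FGF2 (SE 0.24, adjusted p = 0.224), and DVL1 was at 0.07 and -0.10. In edgeR's test 0 of the 6 intracellular transducers passed with either isoform (1 and 1 with an unadjusted p under 0.05, 0 and 0 with DESeq2), where 8.88% and 10.9% of all genes did.

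APC, the scaffold of the destruction complex, had 37 and 20 counts in the control, 5 and 40 with 18 kDa FGF2, and 41 and 23 with 22.5 kDa FGF2. Without 18 kDa replicate 2 its log2 fold change with 18 kDa FGF2 was -2.68 (adjusted p = 0.0106), against -0.44 (adjusted p = 0.809) with all libraries, and its isoform difference was 2.74 (adjusted p = 0.0164) against 0.52 (adjusted p = 0.836). That fit keeps 18 kDa replicate 1 alone, and without both FGF2 replicate 1 libraries both directions turned, to 0.43 (adjusted p = 0.624) and -0.61 (adjusted p = 0.728). Over their alternatives these adjusted p ran from 0.0106 to 0.995 and from 0.0164 to 1. FZD4, LRP6, RYK, LGR4 and CTNNB1, 5 of the 27 tested members (18.5%), had their lowest CPM in 18 kDa replicate 1 and their highest in 22.5 kDa replicate 1, the libraries that stood apart. Among all tested genes it was 11.8%. Without these 2 libraries, which leaves 1 library in each FGF2 group, the rise of FZD4 with 22.5 kDa FGF2 was 1.12. The isoform differences of LRP6 and RYK were then -0.07 and -0.07, against 0.56 and 0.43 with all libraries.

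Between the isoforms WNT6 and FZD4 passed, and both were higher with 22.5 kDa FGF2. WNT6 was 7.93-fold higher (2.99, SE 0.52, 95% interval 1.92 to 4.06, adjusted p = 0.0018). Its log2 fold change ran from 2.64 to 3.66 over its alternatives. Without 22.5 kDa replicate 2, which leaves 1 library in that group, it was at 2.64 and no longer called. Without both FGF2 replicate 1 libraries, which leaves 1 library in each isoform group, it was at 3.66. FZD4 was 2.88-fold higher (1.53, SE 0.24, 95% interval 1.03 to 2.02, adjusted p = 0.000418). Its log2 fold change ran from 1.12 to 1.87 over its alternatives. It was not called without 22.5 kDa replicate 1 (1.42) or 2 (1.60), fits that leave 1 library in that group. Without both FGF2 replicate 1 libraries, which leaves 1 library in each isoform group, it was at 1.12. All 24 neighbours of WNT6 on chromosome 2 were higher with 22.5 than with 18 kDa FGF2, with a median of 0.48, and 15 of the 24 neighbours of FZD4, with a median of 0.15. The part of the neighbourhood in the WNT6 result was not tested, nor was the part of the FGF2 mRNA level in either result.

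For the other members the isoform difference was bounded to varying degrees. It was narrow for ROR2 (-0.15, 95% interval -0.60 to 0.31), DVL3 (-0.07, -0.51 to 0.37) and DVL1 (-0.18, -0.61 to 0.26). FZD7 differed by 0.00322 (-0.60 to 0.61). FZD3 (1.09, 0.29 to 1.90, adjusted p = 0.208) and WNT3A (1.65, 0.49 to 2.80, adjusted p = 0.173) lay higher with 22.5 kDa FGF2 without overlap of the libraries, but did not pass.

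**Figure D4:**
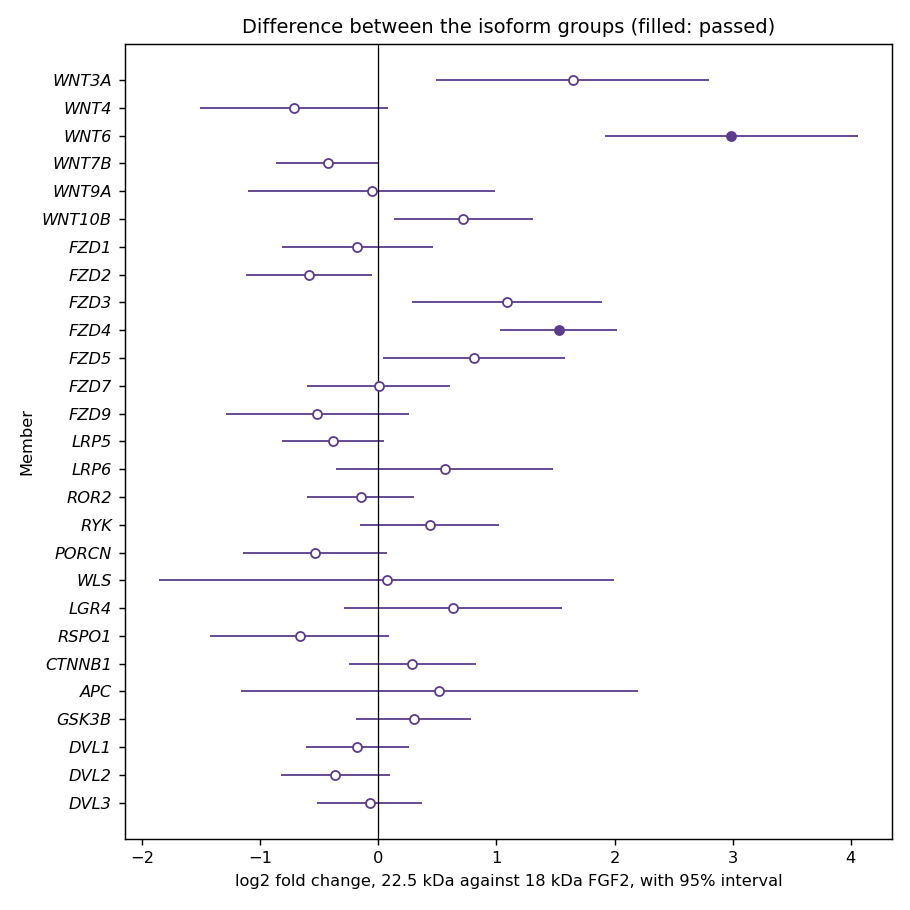
Log2 fold change of 22.5 kDa against 18 kDa FGF2 (x axis) of the 27 tested members (y axis) with its 95% interval, filled where the test passed. WNT6 at 2.99 and FZD4 at 1.53 are the filled points.

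**Figure D5:**
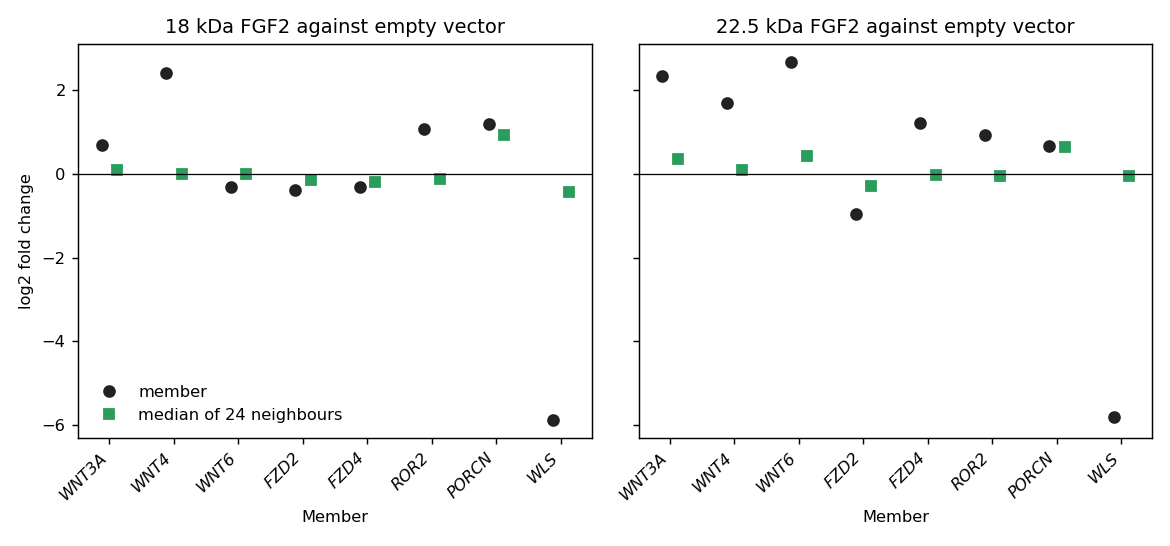
Log2 fold change (y axis) of the 8 members that passed against the control (circles) and the median of the 24 tested genes nearest to each (squares), for 18 kDa (left) and 22.5 kDa FGF2 (right). Member and neighbours are close for PORCN (1.19 and 0.94 left, 0.66 and 0.64 right) and far apart for WLS.

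Of 92 other listed Wnt pathway genes, also chosen with earlier results of these data known, 61 were tested. With 18 kDa FGF2, 5 rose and 6 fell (18% passed, where 8.88% of all genes did). With 22.5 kDa FGF2, 2 rose and 7 fell (14.8%, where 10.9% did). Between the isoforms 0 passed in edgeR's test, where 1.58% of all genes did (8 with an unadjusted p under 0.05, where 1560 of 13124 genes had one, and 0 with DESeq2). The list's median was -0.03 and -0.00283 against the control.

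Among genes acting at the membrane, RNF43, a ubiquitin ligase that removes Frizzled receptors, rose with 18 kDa FGF2 (1.36, adjusted p = 0.000217) and with 22.5 kDa FGF2 (1.08, adjusted p = 0.0021). KREMEN1, a receptor of Dickkopf proteins, fell by 1.10 (adjusted p = 0.00506) and by 1.25 (adjusted p = 0.00154). KREMEN2 fell by 0.77 with 18 kDa FGF2 (adjusted p = 0.0203). The glypican GPC4, a cell surface proteoglycan, fell by 2.45 (adjusted p = 0.000391) and by 1.40 (adjusted p = 0.0239). ATP6AP2, an adaptor between LRP6 and the proton pump, rose by 0.79 (adjusted p = 0.0343) and by 1.10 (adjusted p = 0.00241). TSPAN12, a partner of FZD4 in Norrin signalling, rose by 1.65 with 18 kDa FGF2 (adjusted p = 0.0277).

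Inside the cell, LEF1, which binds DNA together with beta-catenin, had 26 and 47 counts in the control, 0 in both 18 kDa libraries, and 1 and 2 counts in the 22.5 kDa line. Against a floor of 3 counts per library, the 18 kDa line was at least 13.6-fold lower. As a ratio of counts it was 25.7-fold lower with 22.5 kDa FGF2 (exact binomial 95% interval 8.46 to 128). TCF7L1 fell by 1.44 with 18 kDa FGF2 (adjusted p = 0.0217), and FRAT2, an inhibitor of GSK3, rose by 0.79 (adjusted p = 0.0363). The cadherins of planar cell polarity fell with 22.5 kDa FGF2: CELSR1 by 0.84 (adjusted p = 0.0133), CELSR2 by 0.75 (adjusted p = 0.0277) and CELSR3 by 0.87 (adjusted p = 0.011). With 18 kDa FGF2, CELSR2 fell by 0.83 (adjusted p = 0.0171).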

How the data were processed

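RNA was sequenced from 6 libraries, 2 per group; groups follow the labels and none was left out. The authors deposited whole-number counts per Entrez gene without scaling. Directional paired-end libraries came from a TruSeq kit, per the labels' protocols. The submitters' processing notes name hg19 and edgeR. The sources used here do not name the aligner, the counter or its strand setting, so reads of overlapping genes cannot be told apart. RefSeq (GRCh38.p14) supplied symbols for 23308 genes, gene order and promoters.

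Tests used edgeR 4.0.16 in R 4.3.3 (TMM, filterByExpr, robust quasi-likelihood) in 1 model with 3 residual degrees of freedom. Of 23459 genes 10335 were filtered out. Tests were two-sided, and each adjusted p is edgeR's (Benjamini-Hochberg) unless DESeq2 (1.42.0) is named. SE is the absolute log2 fold change over the root of F, and 95% intervals use the moderated degrees of freedom. With 2 libraries against 2 the smallest exact permutation p is 0.333, so none was used. The exact binomial intervals and the floors cover counting error only. The test was checked on simulated data for the 18 kDa, 22.5 kDa and isoform comparisons. Of 100 genes changed 2-fold it recovered 47, 51 and 48, and of 100 changed 4-fold 93, 94 and 95. False calls numbered 6, 6 and 10. Alternatives changed the scaling, the low-count filter, the tool, the libraries and the replicate block.

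The members and lists were chosen with earlier results of these data known. Every member is named. Values in every library are given for members that passed or were among the 3 highest of their role, and of other pathway genes the 12 with the smallest p are named. The neighbours of a gene are the 12 tested genes on each side.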

Additional observations from a re-analysis of the deposited data

Results flagged for a closer look

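WNT6 and FZD4 stood out because the isoform lines differed by the test of the difference itself. WNT6 was higher with 22.5 kDa than with 18 kDa FGF2 by 2.99 on the log2 scale (adjusted p = 0.0018), and FZD4 by 1.53 (adjusted p = 0.000418), both by edgeR's quasi-likelihood test. In each gene both 22.5 kDa libraries were above both 18 kDa libraries. WNT6 was no longer called without 22.5 kDa replicate 2, and FZD4 without 22.5 kDa replicate 1 or 2. All 24 neighbours of WNT6 were higher in the same comparison, with a median of 0.48. The labels name no second line for either isoform, so a difference between lines cannot be told apart from a difference between isoforms. The same holds for the comparisons with the control. FGF2 mRNA itself lay higher in the 22.5 kDa line without overlap of the libraries. That difference was 0.74 on the log2 scale and did not pass (adjusted p = 0.119 in edgeR's test). Its part in the WNT6 and FZD4 results was not tested.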

How the results depend on the processing

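Of 81 comparisons of a tested member, 13 passed, and 4 of these passed in every alternative run: WLS with both isoforms, WNT4 with 18 kDa FGF2 and FZD4 with 22.5 kDa FGF2, each against the empty vector. All 13 kept their direction. Of the 68 that did not pass, 10 passed in at least 1 alternative and 29 changed direction in at least 1. WNT3A and WNT9A were removed by the stricter filter. Scaling by RLE or upper-quartile factors left the counts of members that passed at 4, 7 and 2.

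Leaving out 1 library at a time, the members that passed numbered 2 to 5 with 18 kDa FGF2, 2 to 9 with 22.5 kDa FGF2 and 0 to 4 between the isoforms (at 0, 8 had an unadjusted p under 0.05 in edgeR's test), and all genes that passed numbered 615 to 1371, 620 to 1866 and 28 to 660. A group left with 1 library is assumed to vary like the others. Without both FGF2 replicate 1 libraries all genes that passed numbered 1961, 2584 and 354. Between the isoforms they numbered 109 with upper-quartile factors and 445 with no low-count filter. The cause was not tested.

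The replicate numbers did not pair the libraries in the same way across the groups. Deviations of same-numbered libraries correlated at -0.27 (empty vector and 18 kDa), 0.39 (empty vector and 22.5 kDa) and -0.41 (the isoforms). With the replicate number as a block, all genes that passed numbered 1210, 1523 and 337 and members 4, 7 and 2. With the 18 kDa numbers crossed in the block, an alternative chosen after seeing the data, they numbered 2434, 2911 and 1208, and members 5, 9 and 5. With 2 libraries a group at this depth, 19 members could not be tested.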

Other observations

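Several Wnt genes lie side by side in the genome, and their counts are given side by side. WNT6 and WNT10A are direct neighbours on chromosome 2. WNT10A had 1 and 5 counts in the control, 4 and 2 in the 18 kDa line and 11 and 3 in the 22.5 kDa line, against 5 and 17, 13 and 7, and 68 and 79 for WNT6. WNT10B and WNT1 are direct neighbours on chromosome 12, where WNT10B had 980 counts over the 6 libraries and WNT1 had 6. WNT3 and WNT9B are direct neighbours on chromosome 17, with 30 and 1 counts. WNT3A and WNT9A lie with 1 coding gene between them on chromosome 1, where 20 of the 24 tested neighbours of WNT3A were above the control with 22.5 kDa FGF2, with a median of 0.34.

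WNT8B, a ligand outside the members described above, was at 3.75 and 2.81 CPM in the control, 3.52 and 4.03 CPM in the 18 kDa line and 4.12 and 5.40 CPM in the 22.5 kDa line, and passed in no comparison in edgeR's test (adjusted p = 0.858, 0.545 and 0.82). AXIN2, a feedback target of beta-catenin, had 13 and 14 counts in the control, 9 and 6 in the 18 kDa line and 7 and 9 in the 22.5 kDa line, and its difference from the control did not pass (adjusted p = 0.325 and 0.412).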
